A study of Saccharomyces cerevisiae with 6 samples.

Results

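HXT1 to HXT7 encode the major hexose transporters of budding yeast, the carriers through which glucose enters the cell. These 7 genes were picked by name from the 6445 genes in each count table, and all 7 were present and passed the filter on low counts. They were read in 3 libraries of a β-carotene-producing strain, whose genotype label is CrtI/E/YB after the introduced carotenoid genes, and in 3 libraries of its parent, CEN.PK2-1C, labelled WT, a haploid laboratory strain with several auxotrophies. Both strains were grown for 18 h in YPD, a rich medium made with glucose, at 30 °C and 250 rpm, and both were sampled as cell pellets. Only 1 producing strain was measured, so the introduced genes cannot be told apart from any other difference that strain carries.

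Uptake by these carriers is facilitated diffusion, and the members differ mainly in affinity and in the glucose level at which they are transcribed. Hxt1 and Hxt3 are low-affinity carriers used when glucose is plentiful, Hxt6 and Hxt7 are high-affinity carriers repressed by high glucose, and Hxt2 and Hxt4 are of moderate to high affinity and are induced when glucose is low. Hxt5, of moderate affinity, is known from slow growth, stationary phase and non-fermentable carbon sources. Transcription is governed by the sensors Snf3 and Rgt2, which act through Mth1 and Std1 on the repressor Rgt1, and by the glucose repressor Mig1. The comparison asks how the engineered strain and its parent differed in the transcripts of low-affinity and high-affinity transporters at 18 h. Only RNA was read here. Transporter protein, glucose uptake and the glucose left in the medium at 18 h are not part of these data.

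The libraries held between 48383161 and 58296520 estimated counts, with parental replicates 2 and 3 the shallower ones. GAL80, the galactose repressor gene used to tell the strains apart, had at most 2 counts in a producer library and between 4891 and 6267 in a parental one, although the labels name no change at this gene. It was known from earlier results of these data to be near 0 in the producer, so it is no independent check of the labels. The relation of transcript level to gene GC content was not the same in all libraries. Over 6063 genes, the Spearman correlation between GC content and a library's deviation from the mean ran from 0.33 to 0.60 in the producer libraries, was 0.22 in parental replicate 1, and was -0.65 and -0.47 in parental replicates 2 and 3. The members lie between 39.3% and 41.8% GC, against a median of 39.7% over the genes tested, and their fold changes are also given after a correction for this trend. Whether each replicate was a separate culture is not stated, so the p-values reflect the spread among these samples alone, and that spread may be technical.

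The sequences bear on what can be told apart. In the RefSeq genome R64, the assembly that sacCer3 is drawn from, HXT6 (YDR343C, chromosome IV, 1159608 to 1161320, minus strand) and HXT7 (YDR342C, chromosome IV, 1154216 to 1155928, minus strand) lie 3679 bp apart in the same orientation. Their coding sequences of 1713 bases differ at 3 positions, and the first 1631 bases are identical, as are the 84 bases just upstream of the start codon. Counted from 1 at the A of the start codon, with the HXT6 base first and the HXT7 base last, the differences are T1632C, G1666A and T1677C. The stretch that holds all 3 is printed here because it is the only part of the coding sequence that separates the pair, at chrIV:1159637-1159696 for HXT6 and chrIV:1154245-1154304 for HXT7, minus strand, with the differing bases in capitals.
HXT6: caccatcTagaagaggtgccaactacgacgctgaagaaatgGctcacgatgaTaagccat
HXT7: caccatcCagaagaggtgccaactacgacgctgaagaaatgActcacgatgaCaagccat
Of all 100-base windows in these coding sequences, 94.9% occur elsewhere in the genome in HXT6 and 94.9% in HXT7. The rule by which such reads were divided in counting is not stated, so the separate values of HXT6 and HXT7 are uncertain and their sum is given as well. The sum is uncertain too. If shared reads were counted in full at each gene, it would hold them more than once, which was not tested. The genome is that of the reference strain, and the sequence of CEN.PK2-1C at these genes was not analysed here.

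The other members are more distinct. HXT3 (YDR345C, chromosome IV, 1162957 to 1164660, minus strand) is 82.5% identical to HXT7 in coding sequence and shares a run of 149 identical bases with it, and 3.61% of its 100-base windows are found elsewhere. HXT1 (YHR094C, chromosome VIII, 290913 to 292625, minus strand) and HXT5 (YHR096C, chromosome VIII, 294669 to 296447, minus strand) are 73.4% identical but share a run of 119 bases, and 1.24% and 1.19% of their windows are found elsewhere. HXT4 (YHR092C, chromosome VIII, 287081 to 288811, minus strand) and HXT2 (YMR011W, chromosome XIII, 288079 to 289704, plus strand) had 0 such windows. With windows of 50 bases the shares found elsewhere were 14.9% in HXT3, 4.99% in HXT1, 4.05% in HXT5, 2.50% in HXT4 and 0 in HXT2. HXT3 shares its run of 149 bases with HXT6 as well, and read length is not given. How far reads of the pair enter the HXT3 counts was not tested. No member overlaps another annotated gene. The library kit was a stranded one, per the labels, and whether the counting used strand is not stated.

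Upstream of the start codons the members carry different sets of short motifs, and for 5 members a stretch in which matches lie close together is printed as an example, with other matches lying outside it. Both strands of the 1000 bp before each start codon were searched for the Rgt1 motif CGGANNA, for the Mig1 motif in its form GCGGGG and in the variant form GTGGGG, as well as the less used form CCGGGG and the related form CTGGGG, and for the stress response element AGGGG, and no matches of different motifs overlapped in the members. The median over 6015 protein-coding genes was 1 match for Rgt1, 0 for Mig1 and 1 for the stress element, and 66.4%, 41.8% and 54.9% of these windows had at least 1. HXT3 had 9 Rgt1 matches, a number reached by no other window, and HXT1 had 8, a number reached only by HXT1 and HXT3. HXT5 had 4, HXT2, HXT4 and HXT6 had 3 each and HXT7 had 2. HXT2 and HXT4 had 4 Mig1 matches each, as many as 0.848% of windows had, and HXT6 had 3. HXT6 had 5 stress elements, as many as 0.632% of windows, HXT7 had 4, HXT5 had 2 and HXT2 had 0. Windows were not cut at neighbouring genes. YDR344C lies 685 bp upstream of HXT6, and AHT1 lies 330 bp upstream of HXT4. The HXT6 stress elements at -876, -770 and -743 and its Rgt1 matches at -911 and -904 fall in YDR344C. HXT4 matches from -650 to -425, Mig1 matches among them, fall in AHT1. In the following stretches from RefSeq R64, written along the gene's strand, capitals mark the motif matches on either strand, Rgt1 in HXT3 (chrIV:1164971-1165110, minus strand) and HXT1 (chrVIII:293016-293115, minus strand), Rgt1 and Mig1 in HXT2 (chrXIII:287643-287688, plus strand) and HXT4 (chrVIII:289052-289111, minus strand), and the stress element and Rgt1 in HXT5 (chrVIII:296728-296757, minus strand).
HXT3: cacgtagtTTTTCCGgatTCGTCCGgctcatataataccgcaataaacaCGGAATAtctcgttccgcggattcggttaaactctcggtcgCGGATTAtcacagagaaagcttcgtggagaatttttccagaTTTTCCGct
HXT1: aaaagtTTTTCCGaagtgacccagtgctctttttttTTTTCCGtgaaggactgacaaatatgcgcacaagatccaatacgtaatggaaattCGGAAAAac
HXT2: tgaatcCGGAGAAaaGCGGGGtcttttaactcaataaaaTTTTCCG
HXT4: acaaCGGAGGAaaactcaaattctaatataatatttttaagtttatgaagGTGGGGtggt
HXT5: agttttAGGGGcaCGGAGTAaacaagaaag
A match is a run of letters, and binding by Rgt1, Mig1 or the stress factors was not measured.

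**Figure D1:**
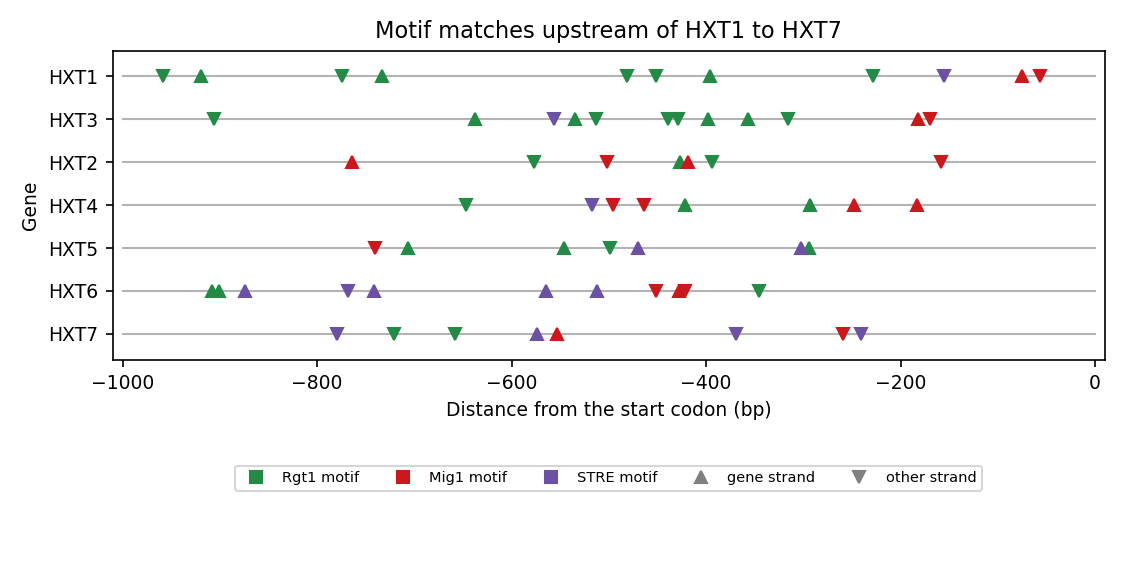
Motif matches in the 1000 bp before the start codon of each transporter gene, by distance from the start codon in bp, with colour for the motif and triangle direction for the strand. HXT3 carries 9 Rgt1 matches and HXT1 carries 8, while HXT7 carries 2 and has 4 stress elements.

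High-affinity transcripts made up most of the pool in both strains. To compare genes, estimated counts were divided by gene length and brought to the same total in each library (transcripts-per-million, TPM). HXT7 stood at 2401 ± 239 TPM in the producer and 2586 ± 135 in the parent (SD, n = 3), and ranked 13 and 5 among all genes with a length. HXT6 followed at 2119 ± 226 and 2251 ± 128 TPM, with ranks of 21 and 17, and HXT2 at 1301 ± 279 and 1710 ± 186 TPM, with ranks of 61 and 32. HXT5 came next in both strains, at 298 ± 12.1 TPM in the producer and 482 ± 50.4 in the parent. The low-affinity genes stood far below, HXT3 at 165 ± 9.92 and 214 ± 11.5 TPM and HXT1 at 112 ± 81.8 and 133 ± 47.8 TPM.

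In the parent, the library values of neighbours in this order did not overlap, except for HXT4 at 221 ± 19.6 TPM and HXT3, whose order changed between libraries. In the producer, HXT7 overlapped HXT6 in range although it was the higher of the pair in 3 of 3 libraries, and HXT3, HXT4 at 156 ± 14.7 TPM and HXT1 overlapped in turn. The ratio of HXT7 to HXT6 counts stayed between 1.13 and 1.15 in all 6 libraries, and their log2 CPM had a Pearson correlation of 0.994 over those libraries. With 94.9% of windows shared, this ratio cannot be read as that of separately measured genes.

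**Figure D2:**
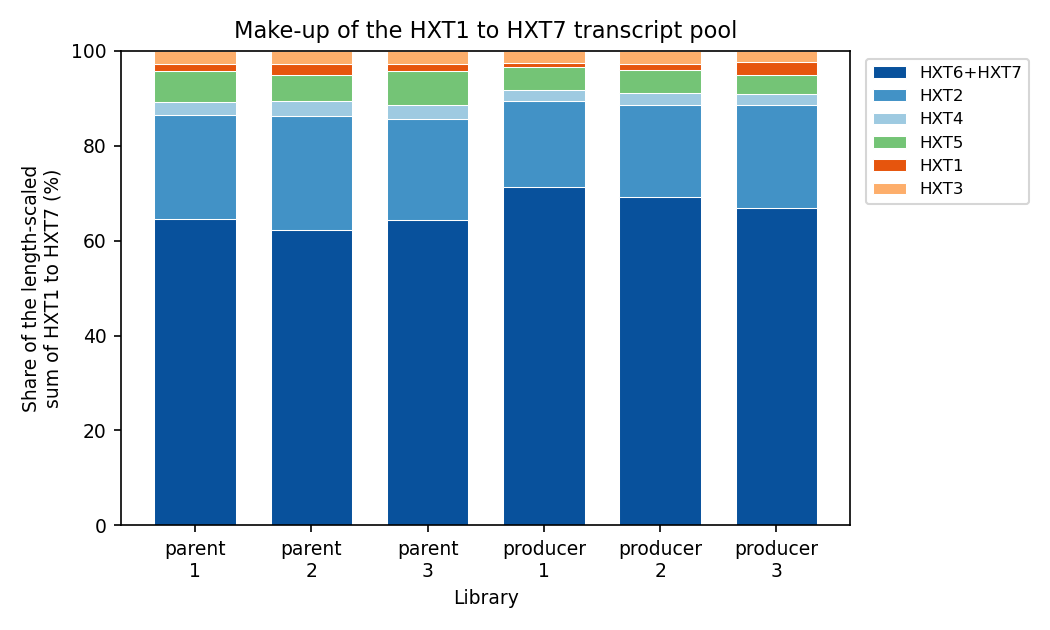
Share of each transporter in the length-scaled sum of HXT1 to HXT7 in every library, in percent, with HXT6 and HXT7 added together. The HXT6 and HXT7 share is between 66.8% and 71.3% in the producer and between 62.2% and 64.5% in the parent, and the HXT1 and HXT3 shares at the top are small in all 6 libraries.

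As a share of the summed TPM of the 7 genes, the low-affinity pair HXT1 and HXT3 made up 3.37%, 4.04% and 5.11% in producer replicates 1 to 3 and 4.33%, 5.13% and 4.22% in the parental ones. The strains overlapped in this share, with means of 4.17 ± 0.880% and 4.56 ± 0.498% (SD, n = 3). HXT6 and HXT7 together made up 71.3%, 69.3% and 66.8% in producer replicates 1 to 3, and in the parental ones 64.5%, 62.2% and 64.3%. Here the strains did not overlap, and every producer library gave the larger share to the high-affinity pair. By comparison, 33.7% of the 6125 genes tested did not overlap between the strains in CPM. HXT5 held 4.80%, 4.85% and 4.10% in the producer against 6.49%, 5.41% and 7.20% in the parent, also without overlap. HXT4 held 2.32%, 2.53% and 2.31% against 2.69%, 3.11% and 2.93%, and HXT2 held 19.7 ± 1.81% against 22.5 ± 1.44% with overlap. Shares of a sum are tied to each other, so a larger share of HXT6 and HXT7 does not by itself mean more of their transcript. High-affinity transcripts outnumbered low-affinity ones by 21.2, 17.1 and 13.1 times in the producer and by 14.9, 12.1 and 15.2 times in the parent. These shares and ratios use HXT6 and HXT7 summed, and would move if shared reads were counted in full at each gene. With HXT6 left out of the sum, the low-affinity share was 6.16% in the producer and 6.48% in the parent.

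The summed level of the 7 genes was 6316, 5866 and 7478 TPM in the producer and 7872, 7826 and 7093 TPM in the parent, and these ranges overlapped. GAL2, the galactose permease, which also carries glucose, stood at 1586 ± 72.9 TPM in the producer and 32.1 ± 6.44 in the parent (SD, n = 3). In the producer this mean TPM was above that of HXT2, although the HXT2 range of 1134 to 1623 TPM holds it. With GAL2 added, the sum was 8140 ± 904 TPM in the producer and 7629 ± 441 in the parent, and GAL2 held 19.6 ± 1.24% and 0.419 ± 0.0703% of it. These sums and shares also depend on how reads shared by HXT6 and HXT7 were counted.

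Between the strains, 2 of the 7 transporters fell in the producer, HXT5 and HXT4, 0 rose and 5 did not pass. The test was edgeR's quasi-likelihood test with Benjamini-Hochberg adjustment over all genes, and over the 6125 genes tested it called 0.343% lower and 0.800% higher, 1.14% in all. At an unadjusted p under 0.05, 3 members were lower and 0 higher, against 13.5% and 13.8% of all genes. DESeq2 called 3 members lower, HXT3 besides HXT4 and HXT5, against 5.92% of genes lower and 7.37% higher, and limma-voom called HXT4 and HXT5, against 0.294% and 0.751%, while each called 0 members higher. After the GC-content correction edgeR called the same 2 members lower, against 0.429% of genes. The log2 fold change (producer minus parent) was below 0 for 7 of 7 members, as for 51.5% of all genes, and the members' median was -0.31 against -0.01 over all genes. HXT6 and HXT7 are not separate measurements here, and HXT1, HXT6 and HXT7 changed sign with some single libraries left out. The strains did not overlap in 3 members, all lower in the producer, while 33.7% of all genes did not overlap in either direction and 17.2% did so with lower values in the producer. These shares rest on single libraries, as the 70 genes called in all became 22, 15 and 21 when producer replicates 1, 2 and 3 were left out in turn, 16 without parental replicate 3 and 1077 without parental replicate 1. The members called lower were 0 in each of these fits except the last, where they were 2. Without parental replicate 2, 87 genes were called in all and 2 members were lower.

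**Figure D3:**
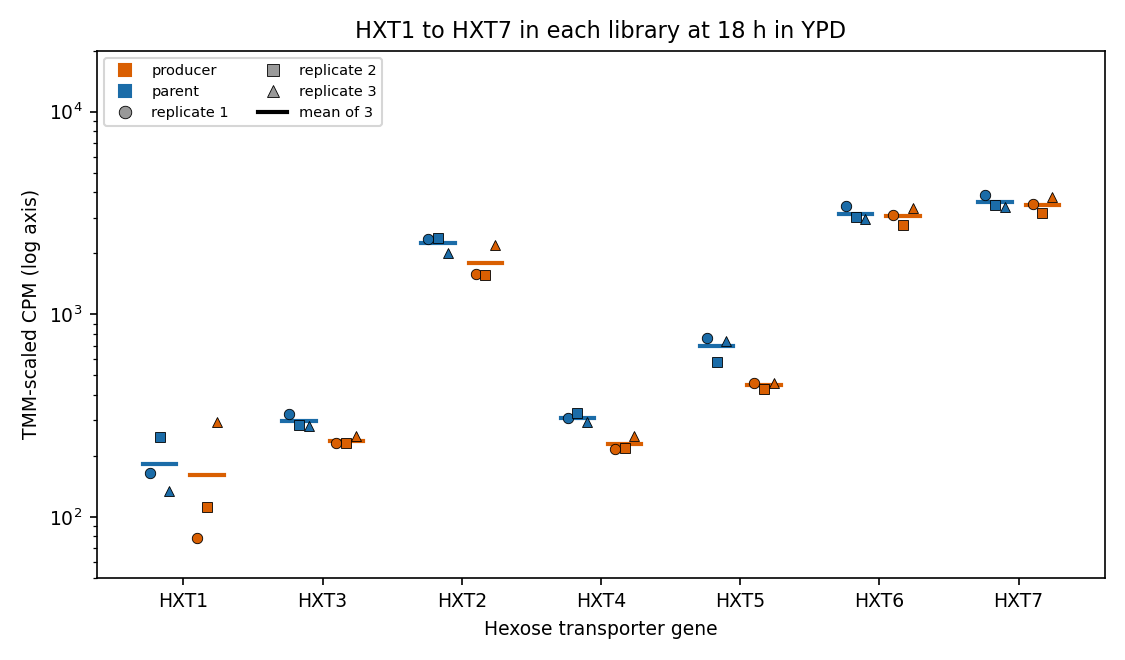
TMM-scaled counts-per-million (CPM) of each transporter on a log axis, with 1 marker per library and a bar at the mean of 3. HXT5, HXT4 and HXT3 are lower in all 3 producer libraries than in any parental library, HXT6 and HXT7 overlap, and HXT1 in producer replicate 3 lies above every other HXT1 value.

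HXT5, the carrier of slow-growing cells, showed the largest difference of the 7. In counts-per-million scaled by the TMM method (CPM), its values were 459.8, 430.0 and 456 in producer replicates 1 to 3 and 763, 584 and 739 in the parental ones. All producer libraries lay close to each other and below every parental library, and parental replicate 2 was the lowest of its strain. From these values HXT5 fell by 0.63 on the log2 scale (SE 0.11, 95% interval -0.89 to -0.37), with an edgeR adjusted p of 0.0415. The parental level was 1.55-fold that of the producer. RNA was taken from whole cultures, so fewer cells with HXT5 transcript and less of it per cell cannot be told apart. The GC-content correction gave HXT5 a value of -0.71 (adjusted p = 0.00565). The edgeR call was lost without producer replicate 1 (adjusted p = 0.136), producer replicate 2 (0.166), producer replicate 3 (0.116) or parental replicate 3 (0.190). It held without parental replicate 1 (0.0212) or parental replicate 2 (0.00104).

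HXT4, induced by low glucose, had 216, 219 and 250.1 CPM in the producer libraries and 308, 327 and 293 CPM in the parental ones. The strains did not overlap, and producer replicate 3 came nearest to the parental values. HXT4 fell by 0.44 on the log2 scale (SE 0.08, 95% interval -0.62 to -0.25), with an edgeR adjusted p of 0.0446. The corrected value was -0.41 (adjusted p = 0.0374). The adjusted p was 0.166, 0.168 and 0.0537 without producer replicates 1, 2 and 3 and 0.177 without parental replicate 3, and the call held without parental replicate 1 or 2.

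HXT2, of similar regulation, had 1589, 1567 and 2205 CPM in the producer and 2357, 2379 and 2005 CPM in the parent. Producer replicate 3 lay among the parental values, above parental replicate 3, while the other producer libraries lay below all of them. Its log2 fold change was -0.33 ± 0.16 (SE) with an edgeR adjusted p of 0.204, and did not pass. The 95% interval of -0.68 to 0.02 includes a change of 1.5-fold downward.

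HXT3, the low-affinity carrier present over a wide range of glucose levels, had 230.5, 232 and 251 CPM in the producer and 323, 284 and 281 CPM in the parent. All producer libraries were lower than all parental ones. The log2 fold change was -0.31 ± 0.08 (SE) with an edgeR adjusted p of 0.0724, which misses the threshold of 0.05, and DESeq2 gave an adjusted p of 0.0114. The value after the GC-content correction was -0.33 with an adjusted p of 0.0618.

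HXT1, the low-affinity carrier induced by high glucose, varied more between replicates than between strains. Its values were 78.8, 112 and 294 CPM in producer replicates 1 to 3 and 165, 249 and 135 CPM in the parental ones. Producer replicates 1 and 2 lay below every parental library and producer replicate 3 above all of them. The highest producer library was 3.74-fold the lowest. By the standard deviation of log2 CPM over the 3 producer libraries, HXT1 ranked 1 among 5528 genes with a mean of at least 10 CPM, at 0.98, and among the parental libraries it ranked 70 of 5532, at 0.45. The lowest of the HXT1 counts was 4366, which has a 95% exact Poisson interval of 4237 to 4497, and the other HXT1 counts lie above that interval. The interval covers counting error only and treats the estimated count as a count of reads. The cause of the spread was not tested.

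The log2 fold change of HXT1 was -0.18 ± 0.46 (SE) with an edgeR adjusted p of 0.827, and the 95% interval of -1.23 to 0.87 spans changes of more than 1.5-fold in either direction. Without producer replicate 3 it was -0.94 with an adjusted p of 0.160. It changed sign without producer replicate 1, at 0.15, without producer replicate 2, at 0.03, and without parental replicate 2, at 0.11. The ratio of HXT1 to HXT3 per length was 0.340, 0.481 and 1.17 in producer replicates 1 to 3, and 0.509, 0.871 and 0.477 in the same order in the parent. In producer replicate 3 alone, HXT1 exceeded HXT3.

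HXT6, the high-affinity carrier, had 3087, 2759 and 3358 CPM in the producer and 3406, 3012 and 2946 CPM in the parent. HXT7, its near copy, had 3489, 3155 and 3786 CPM in the producer and 3898, 3458 and 3402 CPM in the parent. In both genes the strains overlapped over most of their range, with the lowest value in producer replicate 2 and the highest in parental replicate 1. The log2 fold changes were -0.02 ± 0.12 for HXT6 and -0.04 ± 0.12 for HXT7 (SE). When the pair was summed to 1 row before the fit, the value was -0.04 ± 0.13 with an edgeR adjusted p of 0.880. The 95% interval of the sum, -0.33 to 0.26, does not reach the 0.58 that a 1.5-fold change would give.

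**Figure D4:**
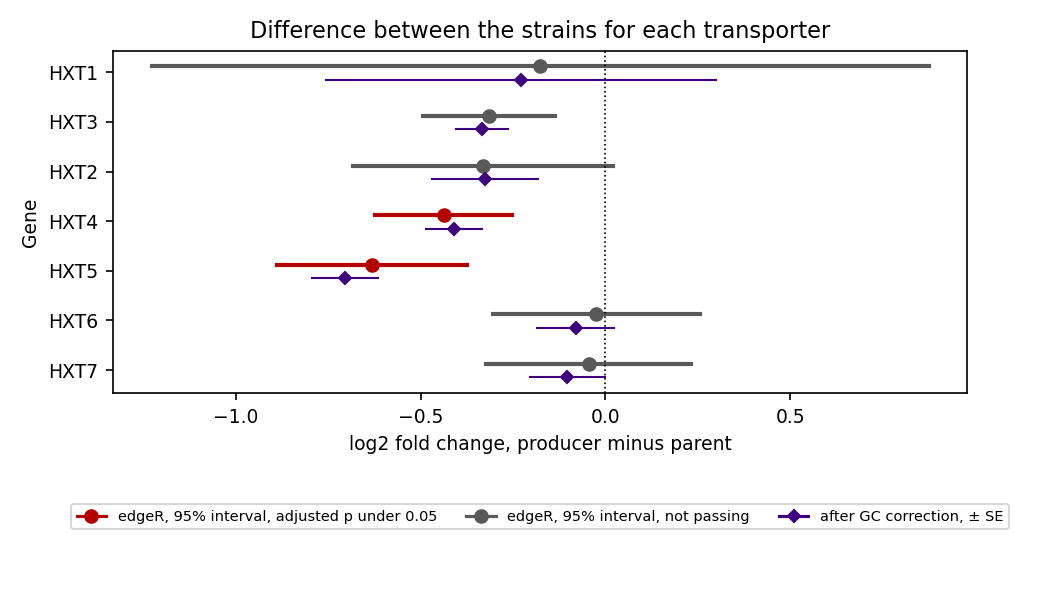
Log2 fold change of each transporter, producer minus parent, with its 95% interval in edgeR (circles) and with ± SE after the GC-content correction (diamonds). HXT5 at -0.63 and HXT4 at -0.44 passed, HXT6 and HXT7 lie near 0, and the interval of HXT1 runs from -1.23 to 0.87.

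As a description that includes the strain difference and shared depth, the Pearson correlation of log2 CPM was 0.910 between HXT3 and HXT4, 0.914 between HXT3 and HXT5, 0.888 between HXT2 and HXT4, 0.832 between HXT2 and HXT3 and 0.819 between HXT4 and HXT5. HXT1 was closest to HXT2, at 0.834, and its correlation with HXT5 was 0.141. Outside the family, among 5013 genes with a standard name and a mean of at least 10 CPM, the pattern most like that of HXT5 was that of RPL42B (0.993), followed by RPL35A (0.976), which both encode proteins of the large ribosomal subunit, and YBP1 (0.972). HXT4 was most like DDL1 (0.987), EMA35 (0.982) and MRS6 (0.976), and HXT3 most like MRS6 (0.977), COX15 (0.977) and GPB1 (0.959). HXT2 was most like RMI1 (0.997), NEJ1 (0.975) and MDH2 (0.953), the last a cytosolic malate dehydrogenase of gluconeogenesis. HXT1 was most like ISC10 (0.976), RSN1 (0.975) and ROX1 (0.969), the last a repressor of hypoxic genes. For HXT6 these were MAL11 (0.890), BZZ1 (0.874) and ARR1 (0.867), and for HXT7 SPE4 (0.875), MAL11 (0.871) and JEN1 (0.857). MAL11 encodes a maltose transporter and JEN1 a lactate transporter. Each value is among the highest of all candidates over 6 points and is no evidence of shared control.

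Of the 10 genes that sense glucose and repress HXT transcription, 0 passed in edgeR and 0 in limma-voom, while DESeq2 called STD1 lower. At an unadjusted p under 0.05 in edgeR, 3 were higher and 2 lower, and the median log2 fold change was 0.15 (0.01 after the GC-content correction). Over all genes tested, 13.8% were higher and 13.5% lower at that p, and DESeq2 called 7.37% higher and 5.92% lower. STD1, a corepressor with Rgt1, was at -0.40 ± 0.13 (SE) with an edgeR adjusted p of 0.1003, and GRR1, the F-box protein that marks Mth1 for degradation, at -0.21 ± 0.08 with 0.126. After the GC-content correction STD1 was at -0.32 and GRR1 at -0.04. In the glucose repression and Snf1 list 0 of 11 passed in edgeR and limma-voom, and DESeq2 called SIP2 higher, with 1 higher and 1 lower at an unadjusted p under 0.05 and a median of 0.01. SIP2, a subunit of the Snf1 kinase, was at 0.39 ± 0.12 (edgeR adjusted p = 0.105), and GLC7, the phosphatase catalytic subunit that acts with Reg1, at -0.19 ± 0.07 (0.139). After the GC-content correction SIP2 was at 0.20 and GLC7 at -0.01.

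Among the other hexose carriers, 3 of 10 genes rose in edgeR, GAL2 (5.70 ± 0.16, SE), HXT13 (0.69 ± 0.12) and HXT17 (0.79 ± 0.14), 0 fell and 7 did not pass, and the median was 0.27 (0.16 after the GC-content correction). limma-voom called the same 3 and DESeq2 also HXT11, named for that call alone, which was at 0.37 in edgeR and at 0.22 after the correction. Over all genes tested, edgeR called 0.800% higher, limma-voom 0.751% and DESeq2 7.37%. HXT13 and HXT17 stood at 25.3 and 15.2 CPM in the producer and at 15.7 and 8.79 CPM in the parent, and are close copies of HXT15 and HXT16, so their counts are uncertain. After the GC-content correction GAL2 was at 5.60, HXT13 at 0.59 and HXT17 at 0.72, and edgeR called all 3 higher. The enzymes that act on glucose after uptake gave 0 of 6 past the threshold in edgeR, DESeq2 and limma-voom, with 0 in either direction at an unadjusted p under 0.05. For this list and those below, the all-gene shares were 13.8% higher and 13.5% lower at that p. In DESeq2 they were 7.37% and 5.92%. GLK1, glucokinase, was at 0.24 ± 0.13 and EMI2, its close relative, at 0.20 ± 0.12, and after the GC-content correction GLK1 turned to -0.08 and EMI2 was at 0.03. Of 15 genes known to be repressed by glucose, 0 passed in edgeR and limma-voom, and DESeq2 called ADR1, PCK1 and SIP4 lower, edgeR giving 1 higher and 4 lower at an unadjusted p under 0.05 and a median of -0.08. ADR1 and SIP4, activators of non-fermentable carbon use, are named for that call alone. In edgeR, SIP4 was at -0.30 and ADR1 at -0.24, and after the GC-content correction SIP4 was at 0.0050 (adjusted p = 0.984) and ADR1 at -0.06 (0.617). PCK1, of gluconeogenesis, was at -0.82 ± 0.20 (edgeR adjusted p = 0.0698) and ACS1, an acetyl-CoA synthetase, at -0.30 ± 0.09 (0.105). ACS1 passed after the GC-content correction, at -0.50 with an edgeR adjusted p of 0.0254, and PCK1 did not, at -0.89 (0.123). In a list of 11 genes for ubiquitin-dependent turnover of transporters 0 passed in edgeR and limma-voom, with 1 higher and 2 lower at an unadjusted p under 0.05. CSR2, an arrestin-related adaptor, was at -0.45 ± 0.15 and ART5, another, at 0.28 ± 0.08, and DESeq2 called both. After the GC-content correction CSR2 was at -0.45 and ART5 at 0.11 (edgeR adjusted p = 0.313).

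**Figure D5:**
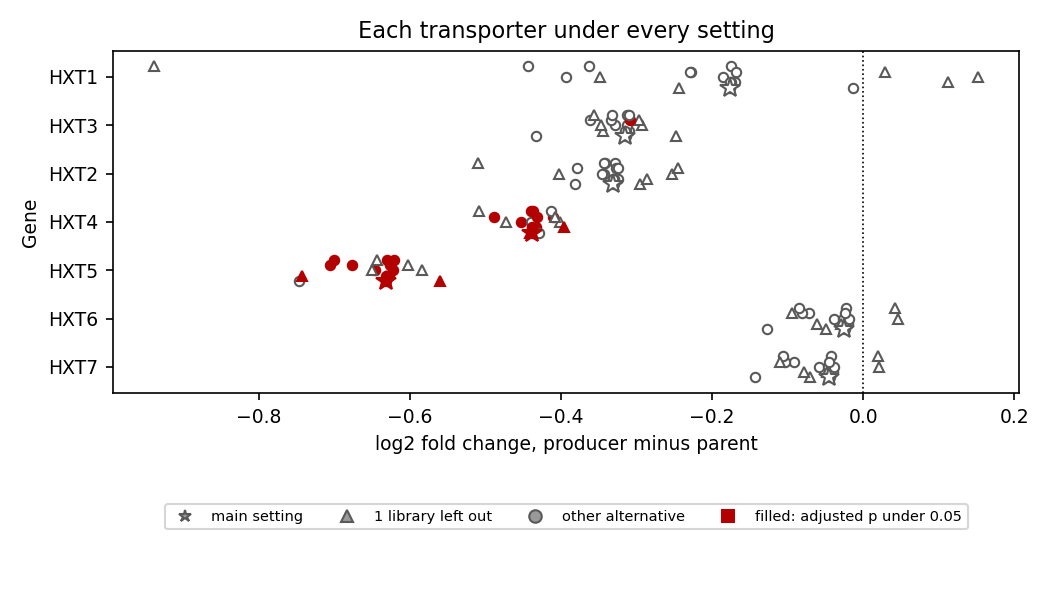
Log2 fold change of each transporter, producer minus parent, under the main setting (stars), with 1 library left out (triangles) and under the other alternatives (circles), filled where the adjusted p is under 0.05. HXT5 stays between -0.75 and -0.56 and HXT4 between -0.51 and -0.40, while HXT1 runs from -0.94 to 0.15.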

How the data were processed

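Per the file headers, each deposited table holds the estimated counts of 1 library, taken from StringTie output after removal of duplicate reads. FastQC, HISAT2, SAMtools, Picard and DESeq2 with the build sacCer3 are named, per the submitters' processing notes, and the sources used here do not give versions, read length or the handling of strand and of reads with several matches. Counts from coverage are estimates, and duplicate removal may lower abundant genes such as HXT6 and HXT7, which was not tested. The values were already whole, so rounding changed nothing.

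Tables were joined by gene name, and 6210 of 6445 names, all 7 transporters included, matched RefSeq R64. TPM used the annotated coding length and covered 99.8% of counts in the library with the lowest coverage. The test was edgeR 4.0.16 in R 4.3.3 (quasi-likelihood, two-sided, filterByExpr, TMM, robust, group only), adjusted over 6125 genes, with SE taken as the fold change divided by the square root of F. DESeq2 1.42.0 and limma-voom (limma 3.58.1) were alternatives. Log2 CPM used a prior count of 2. The GC-content correction removed a loess trend (span 0.5, genes of at least 5 CPM) in each library as an offset. The fit was tested on simulated data with 200 genes changed. The simulated counts held no GC-content trend, so that test does not bear on the trend in these libraries. Identity came from global alignment in Biopython 1.88. All replicate pairs differed by more than sampling noise, and 6 libraries were kept.

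The transporters, the lists, the alternatives and GAL80 were chosen with earlier results of these data known. The genes named for their values are the 7 transporters, the 3 most correlated genes of each and GAL80 as a check. From each list, the members that passed in edgeR are named, or else the 2 with the smallest adjusted p. HXT11, ADR1 and SIP4 were added to these for their DESeq2 calls.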

Additional observations from a re-analysis of the deposited data

How the results depend on the processing

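The 7 transporters were refitted under 19 alternatives (other scalings, filters, tools, GC content, library total, replicate number, HXT6 and HXT7 summed, each library left out), 18 of which give HXT6 and HXT7 singly. HXT5 kept its direction in all 19 and its call in 14, and HXT4 its direction in 19 and its call in 12. The count of 2 lower transporters was 1 with the replicate number as a block, where HXT4 had an adjusted p of 0.0555 and HXT5 passed, 1 with the block and the GC-content correction together and 0 when the library total was a covariate, and ran from 0 to 2 with 1 library left out. Same-numbered libraries correlated at 0.24, -0.23 and -0.46 in their deviations from the strain mean, and the other pairs at -0.33 to 0.48. Deviations within a strain are tied to each other, so these values cannot settle whether the numbers pair the samples. The block moved the count over all genes from 70 to 104. That count was 25 with block and GC-content correction, 10 with the library total, 815 in DESeq2 and 15 to 1077 with 1 library left out. HXT3 passed in DESeq2 only. With 1 library left out, HXT1 ran from -0.94 to 0.15, HXT6 from -0.095 to 0.046 and HXT7 from -0.11 to 0.020. HXT1 turned to 0.15, 0.03 and 0.11 without producer replicate 1, producer replicate 2 and parental replicate 2, and HXT6 and HXT7 turned positive without producer replicate 2 or parental replicate 1 (0.043 and 0.019). The low-affinity share was 6.16% in the producer and 6.48% in the parent with HXT6 left out of the sum, and 1.64% and 1.74% with HXT1 alone. With 1 library left out it ran from 3.70% to 4.58% and from 4.28% to 4.73%. A fit with 1 library left out has fewer degrees of freedom, and why the results moved between settings was not tested.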
